A study of Rattus norvegicus with 6 samples.

Results

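The genes Sycp3, Sycp1, Mov10l1, Tex101, Ddx4 and Nxf7, grouped as meiotic and germline genes, were followed in rat pluripotent stem cells. Of these, Nxf7 stands in a list of mRNA export genes and in none of the germ cell lists used below. Every probe set, the array's group of probes for 1 transcript, that the platform's annotation names for exactly 1 of these 6 genes was taken, which gave 5 probe sets of 31042 on the array. Sycp3, Sycp1, Mov10l1, Tex101 and Nxf7 had 1 probe set each, and no probe set is named for Ddx4, whose expression was not analysed here and which enters with its promoter alone. These genes were chosen by their values in the same comparison of cell types that is described here, so their differences are a description and carry no test.

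The samples were 3 arrays of embryonic stem (ES) cells and 3 arrays of flat pluripotent stem (fPS) cells, all of the Sprague-Dawley strain. The labels give both groups 1 culture protocol: a medium with 10 ng/ml human LIF, 3 μM CHIR99021, a GSK3 inhibitor, and 0.5 μM PD0325901, a MEK inhibitor, and maintenance on mouse embryonic fibroblasts stopped with mitomycin C, in a serum medium. The comparison asks how transcripts of the flat cells differ from those of ES cells. The labels do not say how many lines or separate cultures the 3 samples of a group stand for, so the spread between arrays may be technical, and the description field calls the fPS samples embryonic stem cells too. The median intensity of an array lay between 36.2 and 45.3, no 2 arrays were identical, and the pluripotency gene Sox2 and the epithelial adhesion gene Epcam were bright on all 6, with lowest values of 1281 and 3197.

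Meiosis is the pair of divisions that makes haploid gametes. In its prophase the paired chromosomes are held together by the synaptonemal complex, whose side elements contain Sycp3 and whose transverse filaments are made of Sycp1. Mov10l1 is an RNA helicase that feeds precursor transcripts into the piRNA pathway, which silences transposons in the male germ line, and Ddx4 (Vasa) is a helicase of the germ granules where that pathway works. Tex101 is a GPI-anchored surface protein of germ cells needed for sperm to fertilise, and Nxf7 is a relative of the mRNA export receptor Nxf1. In somatic cells and before the germ line forms, many such genes are kept silent by promoter methylation and by a Polycomb-type complex whose subunits Mga with Max and E2f6 recognise E-box and E2F-type DNA motifs.

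All 6 genes had a promoter sequence in RefSeq (assembly GRCr8), a window from 250 bases before to 50 bases after an annotated transcript start. These windows were searched for the E-box CACGTG, which reads the same on both strands, and for the E2F-type motif GCGGGAA on either strand. Of the 6, 4 held an E-box, namely Sycp3, Mov10l1, Ddx4 and Nxf7, whereas 6.65% of all 27457 promoters of the same length did. In a shorter window from 150 bases before the start, 2 of the 6 held one, Sycp3 and Ddx4, against 4.81% of all promoters. Sycp3 held 2 E-boxes, 85 and 64 bases before its start, and 0.554% of all promoters held at least 2. The E-boxes of Mov10l1, Nxf7 and Ddx4 began 154, 177 and 80 bases before the start. Only Ddx4 among the 6 held the E2F-type motif, 187 bases before its start and apart from its E-box, and 4.47% of all promoters did. A match is a description of letters and shows neither binding nor a cause.

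The promoter windows of the 4 genes that were higher in fPS cells are printed 5′ to 3′ on the gene's own strand, with E-boxes in capitals, to show where the motif lies in genes that differed together. The windows are chr7:24761226-24761525 on the plus strand for Sycp3, chr7:121949572-121949871 on the plus strand for Mov10l1, chrX:102845647-102845946 on the minus strand for Nxf7 and chr1:89387291-89387590 on the minus strand for Tex101, which has no match to either motif.
Sycp3: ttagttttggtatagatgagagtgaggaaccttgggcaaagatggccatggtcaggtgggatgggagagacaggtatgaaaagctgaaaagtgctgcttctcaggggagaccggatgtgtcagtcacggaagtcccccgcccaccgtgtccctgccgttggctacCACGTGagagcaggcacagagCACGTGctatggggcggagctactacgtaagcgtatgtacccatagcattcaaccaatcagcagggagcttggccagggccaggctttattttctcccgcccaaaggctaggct
Mov10l1: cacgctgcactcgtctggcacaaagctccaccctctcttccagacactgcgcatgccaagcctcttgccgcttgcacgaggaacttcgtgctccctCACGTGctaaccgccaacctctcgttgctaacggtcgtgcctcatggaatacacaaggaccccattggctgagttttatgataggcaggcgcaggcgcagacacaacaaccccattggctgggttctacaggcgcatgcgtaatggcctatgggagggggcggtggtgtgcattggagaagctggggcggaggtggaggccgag
Nxf7: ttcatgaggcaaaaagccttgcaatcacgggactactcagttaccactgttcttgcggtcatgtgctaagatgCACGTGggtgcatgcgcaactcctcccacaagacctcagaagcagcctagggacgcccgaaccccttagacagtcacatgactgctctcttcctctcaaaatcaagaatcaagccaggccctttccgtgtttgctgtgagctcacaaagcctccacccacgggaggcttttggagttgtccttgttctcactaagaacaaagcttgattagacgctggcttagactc
Tex101: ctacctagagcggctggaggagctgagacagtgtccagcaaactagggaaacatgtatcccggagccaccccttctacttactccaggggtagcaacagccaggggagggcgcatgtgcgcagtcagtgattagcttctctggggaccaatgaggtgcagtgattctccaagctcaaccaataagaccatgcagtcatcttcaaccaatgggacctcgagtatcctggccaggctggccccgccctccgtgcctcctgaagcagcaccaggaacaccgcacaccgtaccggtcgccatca

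**Figure D1:**
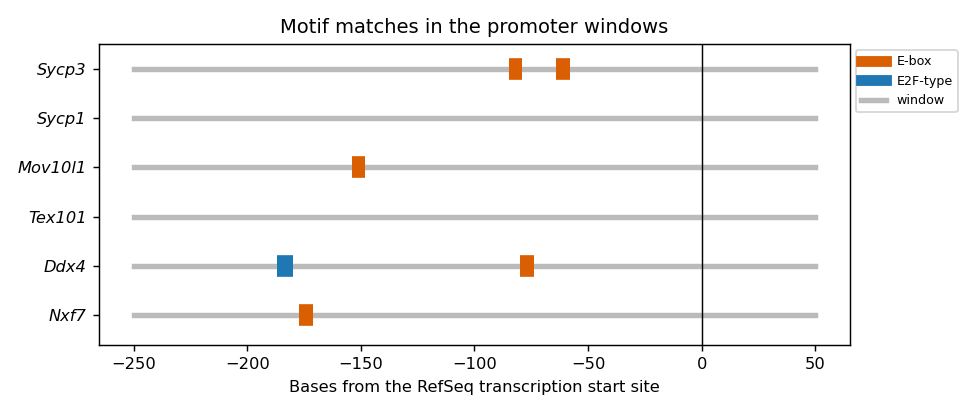
Promoter windows of the 6 genes, drawn by distance in bases from the annotated start (vertical line), with matches to the E-box in orange and to the E2F-type motif in blue. Sycp3 has E-boxes 85 and 64 bases before its start, Mov10l1, Ddx4 and Nxf7 have 1 each, and Sycp1 and Tex101 have none.

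The CpG content of these windows differed widely. The observed over expected CpG ratio, a measure of how far CpG has been retained, was 0.489 for Sycp3, 0.621 for Sycp1, 0.674 for Mov10l1, 0.439 for Tex101 and 0.465 for Nxf7, and 0.916 for Ddx4. Of all promoters, 88.6% had a lower ratio than Ddx4, while Sycp3, Tex101 and Nxf7 were close to the middle of all promoters, with 55.6%, 51.9% and 53.9% below them. For Sycp1, Mov10l1, Ddx4 and Nxf7 the window sits on a transcript start 54, 79, 146 and 103 bases inside the annotated gene. These windows still reach past the 5′ end of the gene, and only sequence beyond the windows was not searched. Motif distances and the shorter window are counted from that inner start. The E-boxes of Mov10l1 and Nxf7 lie before the annotated gene, whereas that of Ddx4 lies inside it.

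Sycp3, the side element protein, had intensities of 381, 405 and 368 in ES and 1653, 1892 and 1509 in fPS cells. The ES arrays lay close together, and the lowest fPS array was 3.73 times the highest ES array. The mean went from 385 ± 18.4 (SD, n = 3) to 1685 ± 193, a ratio of 4.38. On the scale of log2(intensity + 16) the difference was 2.08 (SE 0.199). The ES level itself was above the median of every array, so the signal of this probe set was not confined to the fPS arrays.

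Sycp1, the transverse filament protein that bridges the chromosomes in the same structure, had intensities of 0.968, 1.04 and 9.14 in ES and 1.88, 0.332 and 13.4 in fPS cells. All 6 values were below the median of their array, and the groups overlapped. The log2 difference was 0.080 (SE 0.288). The higher array in each group was replicate 3. Values this small have no meaningful ratio, and no detection calls were at hand.

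Mov10l1, the piRNA helicase, had intensities of 48.9, 66.0 and 28.2 in ES and 213, 251 and 149 in fPS cells. The groups did not overlap, and the lowest fPS array was 2.25 times the highest ES array. The mean went from 47.7 ± 18.9 (SD, n = 3) to 204 ± 52.0, a ratio of 4.28 and a log2 difference of 1.81 (SE 0.292). Its ES values stood around the median of the arrays.

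Tex101, the germ cell surface protein, had intensities of 92.0, 170 and 96.1 in ES and 421, 385 and 381 in fPS cells. The fPS arrays were close together, ES replicate 2 stood above the other ES arrays, and the lowest fPS array was 2.25 times the highest ES array. The mean went from 119 ± 43.7 (SD, n = 3) to 396 ± 21.7, a ratio of 3.32 and a log2 difference of 1.65 (SE 0.255).

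Nxf7, the export receptor relative, had intensities of 61.3, 53.9 and 34.7 in ES and 273, 537 and 393 in fPS cells. It had the widest gap of the 5 genes, with a lowest fPS array at 4.45 times the highest ES array. The mean went from 50.0 ± 13.7 (SD, n = 3) to 401 ± 132, a ratio of 8.02 and a log2 difference of 2.63 (SE 0.290).

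**Figure D2:**
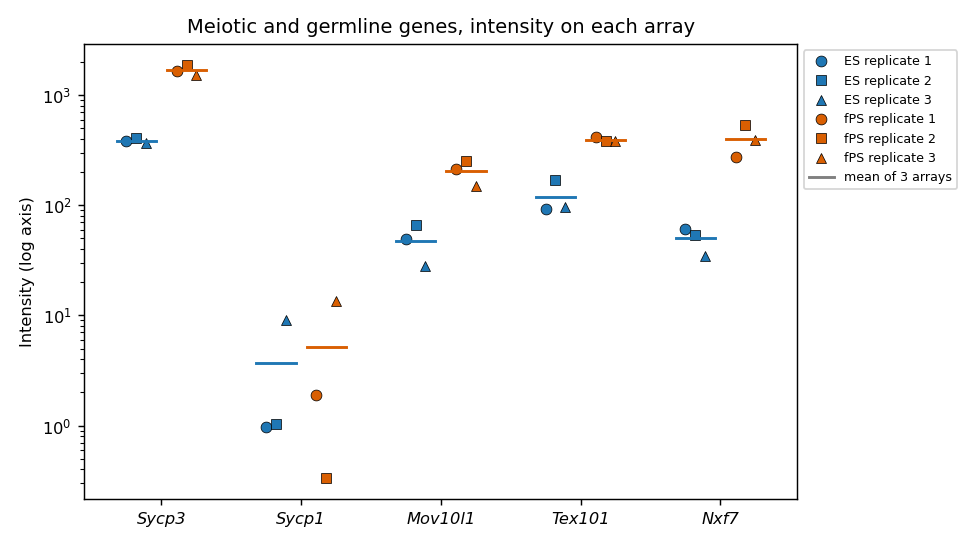
Intensity of the 5 measured genes on each of the 6 arrays, on a log axis; symbols mark replicates and lines the mean of 3 arrays. For Sycp3, Mov10l1, Tex101 and Nxf7 all fPS arrays lie above all ES arrays, while Sycp1 lies between 0.332 and 13.4 with overlapping groups.

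In all, 4 of the 5 probe sets passed the limma threshold (adjusted p under 0.05) and were higher in fPS cells, against 0.399% of all probe sets, and the same 4 did not overlap between the groups, against 10.1% of all probe sets. The choice of genes fixes these counts, and nothing is read from them. None of the 5 passed with a pseudocount of 1, without ES replicates 1 or 3, without fPS replicates 2 or 3, or without both replicate 3 arrays. Hardly any gene passed there: 0, 0, 1, 0, 3 and 0 of all 14217 genes, in that order. With a pseudocount of 64 Sycp3 alone passed, without ES replicate 2 Sycp3 and Tex101 did, and without fPS replicate 1 Sycp3 and Nxf7 did. In these settings 26, 19 and 93 of all genes passed. Tex101 did not pass with the replicate block or the collagen covariate, where 64 and 61 of all genes did. These outcomes also come from the values by which the genes were chosen, so they are no test and do not rank the genes. In bulk samples, more cells with a transcript and more transcript per cell cannot be told apart. The order of the 4 differences was Nxf7, Sycp3, Mov10l1 and Tex101. The gaps between neighbours in that order, 2.63, 2.08, 1.81 and 1.65, were each under 2 times the larger standard error of the pair, and were not tested.

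Within the groups the lowest and highest arrays were partly the same for the 4 genes. Replicate 3 was the lowest ES array for Sycp3, Mov10l1 and Nxf7, and replicate 1 for Tex101. Replicate 3 was also the lowest fPS array for Sycp3, Mov10l1 and Tex101, and replicate 1 for Nxf7. Replicate 2 was the highest array of both groups for Sycp3 and Mov10l1. The median intensity of fPS replicate 3 was also the lowest of the arrays (36.2), and the part of array scale in these ranks was not tested. Over the 6 arrays, Pearson's r of log2 values between pairs of the 4 genes ran from 0.927 (Tex101 with Nxf7) to 0.979 (Sycp3 with Nxf7). These values share the arrays and are set mostly by the difference between the groups. With Sycp1, r ran from -0.20 (Mov10l1) to 0.042 (Sycp3).

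The replicate 3 arrays had the highest signal of collagen genes, which mark fibroblasts, the feeder cell type. The probe sets are annotated to rat genes, whereas the feeders were mouse cells, so how far this signal measures feeders was not tested. Averaged over 7 collagen genes, the log2 level was 5.60, 6.33 and 7.67 in ES and 6.59, 6.31 and 7.47 in fPS cells, so the groups overlapped. The summed intensity of 21 fibroblast genes ran from 6765 to 9132 on the ES and from 6661 to 7206 on the fPS arrays. By limma 0 of these 21 genes passed, with 3 higher and 1 lower before adjustment (p under 0.05), and none was listed at 0. The marker Thy1 had the range 1.91 to 27.1 over all arrays, and Timp1, Fn1 and Col5a2 were the brightest, with log2 differences of 0.55, -0.42 and 0.61 (adjusted p = 0.625, 0.379 and 0.849). The list had a median of 0.29 with 14 of 21 positive, and without ES replicate 1 the median was 0.0047. Singled out after their values were seen, the matrix protease Mmp2 and the matrix protein gene Postn had differences of 1.37 and 1.20 (adjusted p = 0.113 and 0.125), with all fPS arrays above all ES arrays, and the receptor gene Pdgfra had 1.12 (adjusted p = 0.274) with overlapping groups. With the collagen level as a covariate the differences of Sycp3, Mov10l1, Tex101 and Nxf7 were 2.10, 1.91, 1.66 and 2.70. Without both replicate 3 arrays, a choice made after seeing the data, they were 2.13, 1.76, 1.56 and 2.44.

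Of 18 markers of the gonad's somatic cells, 2 were brighter on average than the median probe set, namely Rhox5, a homeobox gene that was bright in both groups, and Inhba, an activin subunit. By limma 0 of the 18 passed (before adjustment, at p under 0.05, 2 higher), with a median log2 difference of -0.079. Amh, the Sertoli cell hormone, lay between 9.94 and 42.2 and the steroid enzyme gene Cyp17a1 between 0.374 and 16.1 over all arrays. Rhox5 and Inhba had log2 differences of -0.12 and -0.081, and Gata4, a factor shared with endoderm, of 1.05 (adjusted p = 0.056). The summed intensity of the list ran from 4361 to 6378 in ES and from 4143 to 5703 in fPS cells. Of 16 endoderm genes 0 passed, but 9 were higher and 0 lower before adjustment (p under 0.05), and 14 were positive. The median was 0.75, and 0.55 to 0.92 when single arrays were left out. In 6 genes all fPS arrays were above all ES arrays and in 0 below, against 11.3% of all genes in each direction. The summed intensity of the list ran from 1933 to 4099 in ES and from 3650 to 5076 in fPS cells. Lamc1, Lamb1 and Lama1, the brightest, had log2 differences of 0.51, 0.86 and -0.48. The part of endoderm-like cells in the difference of the germline genes was not tested. Of 13 pluripotency genes 0 passed (before adjustment, at p under 0.05, 1 higher and 2 lower), with a median of -0.15, or 0.033 without fPS replicate 3. Klf2, Epcam and Klf5 had log2 differences of -0.12, 0.026 and 0.32.

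Sycp3 lies wholly within the annotated span of another gene, Chpt1, on the opposite strand of chromosome 7. Chpt1 encodes a choline phosphotransferase of phosphatidylcholine synthesis. It is no germline gene and had no part in the choice of genes. Its brightest probe set had intensities of 338, 350 and 414 in ES and 1060, 1671 and 1313 in fPS cells, so all fPS arrays were higher. That probe set rose by 1.81 on the log2 scale (SE 0.233, adjusted p = 0.0332, limma), and over the 6 arrays it correlated with Sycp3 at r = 0.979. The other 2 Chpt1 probe sets had log2 differences of 0.59 (adjusted p = 0.257) and 0.018 (adjusted p = 0.987), so the 3 probe sets of the gene disagreed. The positions and strand of the probes were not used here, so which of the overlapping transcripts each probe set reads was not tested. No other of the 6 genes overlaps an annotated gene. The call of Chpt1 was lost without ES replicates 1, 2 or 3 (adjusted p = 0.137, 0.0781 and 0.0971) and without fPS replicates 2 or 3 (adjusted p = 0.179 and 0.0897), and at a pseudocount of 1 (0.137 again).

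**Figure D3:**
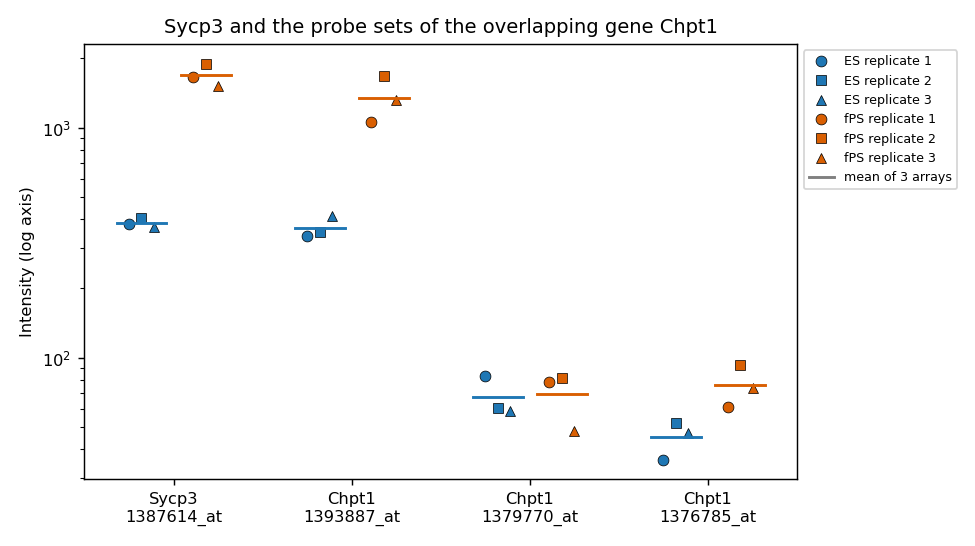
Intensity of Sycp3 and of the 3 probe sets of Chpt1, the gene that spans it on the other strand, on each array (log axis; symbols mark replicates and lines the mean of 3 arrays). The brightest Chpt1 probe set goes from 367 to 1348 on average, as Sycp3 goes from 385 to 1685, while another Chpt1 probe set is at 67.6 and 69.4.

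The nearest measured genes around the other members did not pass. Taking 3 genes on either side of each of the 5 measured genes, 30 in all, 1 passed, which was Chpt1, and 9 had all fPS arrays above all ES arrays, with a median log2 difference of 0.22. Over all 14217 genes, 0.57% passed as higher and 11.3% had all fPS arrays on top. Spic, a transcription factor gene beside Sycp3, had a log2 difference of -0.74 (adjusted p = 0.312). Gprasp2, near Nxf7 on the X chromosome, had 1.21 (adjusted p = 0.0764), and Lypd3, a neighbour of Tex101 and like it a LY6/uPAR domain protein, 0.54 (adjusted p = 0.532). These genes were chosen by position after the data were seen.

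Other germline genes were then read from 5 lists that leave out the 6 genes, with each gene represented by its brightest probe set. The lists named 45 genes of meiosis, 24 of piRNA and germ granules and 23 of primordial germ cells. They also named 30 genes of late sperm cells and 22 of oocytes. A probe set with that single symbol was found for 17, 10, 11, 21 and 10 of these, in that order. The rest of the listed genes were not read. Of 68 genes measured, 1 rose and 0 fell, against 0.57% and 0.288% of all genes, and before adjustment (p under 0.05) there were 6 higher and 8 lower. Groups that did not overlap were seen with fPS cells on top in 8 genes and below in 10, against 11.3% of all genes in each direction. The median log2 difference was 0.045, beside -4.6e-05 over all genes. The share called rested on 1 gene and moved with the settings. Without the dimmest 30% of probe sets, 14.3% of the germline genes passed beside 3.65% of all genes; without the dimmest 50% these shares were 17.6% and 5.56%, and with trend and robust settings 8.82% and 2.52%. Every list had been written with earlier results of these data known.

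Of 17 other genes of meiosis 0 passed by limma, with 3 higher and 2 lower before adjustment (p under 0.05) and a median of 0.0041. Sycp2, which forms the side elements together with Sycp3, was at 18.7, 2.69 and 9.86 in ES and 14.9, 22.9 and 19.2 in fPS cells, with overlapping groups. Stag3, a meiotic cohesin subunit, was at 64.8, 123 and 131 in ES and 243, 270 and 468 in fPS cells; its log2 difference of 1.48 (SE 0.325) did not pass (adjusted p = 0.0788). Syce3, a protein of the central element, had 55.3, 108 and 40.3 against 149, 178 and 216, a difference of 1.30 (adjusted p = 0.0947). Both had non-overlapping groups. Mlh3, a mismatch repair protein of crossover formation, lay in the opposite direction, at 70.3, 79.9 and 146 in ES and 15.7, 5.23 and 34.3 in fPS cells, a difference of -1.77 (adjusted p = 0.0639). Mnd1, a partner of the recombinase Dmc1, had -0.64 (adjusted p = 0.199). Spo11, the enzyme that makes the breaks that start meiotic recombination, stayed between 0.631 and 3.86 on all arrays. Sycp2, Spo11 and Cpeb1 were singled out here for their role or after their values were seen; Cpeb1, an oocyte RNA-binding protein, was dim, with a mean of 3.25 in ES and 43.5 in fPS cells and a difference of 1.55 (adjusted p = 0.0571).

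Of 10 other genes in the list made for the piRNA pathway and germ granules 0 passed by limma. Before adjustment (p under 0.05) 1 was higher and 1 lower, and the median was 0.30. Without ES replicate 1 that median was 0.070. Asz1, a mitochondrial scaffold of the piRNA pathway, was at 61.9, 60.6 and 51.2 in ES and 143, 141 and 120 in fPS cells. Its groups were tight and apart, but the difference of 1.02 (SE 0.198) did not pass (adjusted p = 0.057; its alternatives gave 0.0233 to 0.252). Piwil2, a piRNA-binding protein, Tdrd12 and Tdrd3, Tudor domain proteins, had differences of 0.54, 0.40 and -0.41 with overlapping groups. The dim gene Ddx25, singled out after its values were seen, had -0.90 (adjusted p = 0.121), with all fPS arrays below all ES arrays.

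In the list of primordial germ cell genes, the embryonic founders of the germ line, 0 of 11 passed by limma, with 0 higher and 3 lower before adjustment (p under 0.05) and a median of -0.15, or -0.012 without fPS replicate 3. Lin28a, an RNA-binding protein of early germ cells and pluripotent cells, Alpl, the alkaline phosphatase, Sox2 and the receptor Kit had log2 differences of -1.30, -1.04, -0.97 and -0.54 (adjusted p = 0.0933, 0.104, 0.181 and 0.455). In the list of late sperm cell genes 0 of 21 passed (before adjustment, at p under 0.05, 1 higher and 2 lower), with a median of 0.084. The transition protein gene Tnp1 stayed between 1.05 and 1.86, the protamine gene Prm1 between 6.64 and 31.5 and the sperm sheath gene Akap4 between 1.56 and 3.28, all below the array medians. Odf2, Crem, Hspa2 and Odf1 had differences of -0.51, -0.84, 0.084 and 0.047. Singled out after their values were seen, the dim genes Acrv1 and Tsga10 had 0.96 and -0.75 (adjusted p = 0.0871 and 0.203). Acrv1 had all fPS arrays above all ES arrays, and Tsga10 had all of them below.

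The 1 gene that rose was in the oocyte list, where 1 of 10 passed. Sohlh1, a helix-loop-helix transcription factor of early oocytes and spermatogonia, was at 6.78, 3.34 and 2.69 in ES and 35.2, 104 and 99.7 in fPS cells. All fPS arrays were higher, although the signal was low: its ES values lay below the array medians, and fPS replicate 1 was under the median of its array too. Sohlh1 rose by 2.14 on the log2 scale (SE 0.334, adjusted p = 0.0389, limma). The call was lost without ES replicates 1, 2 or 3 (adjusted p = 0.142, 0.097 and 0.12), without fPS replicates 2 or 3 (adjusted p = 0.188 and 0.104), and with pseudocounts of 1 and 64, quantile normalization, the replicate block and the collagen covariate (adjusted p = 0.132, 0.0924, 0.0526, 0.059 and 0.0556). The difference itself was 2.14 with the block and 2.15 with the covariate, and 3.86 and 1.03 with pseudocounts of 1 and 64. Ooep, an oocyte protein that was bright in both groups, had a difference of -0.44 (adjusted p = 0.381), and the list's median was 0.037.

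**Figure D4:**
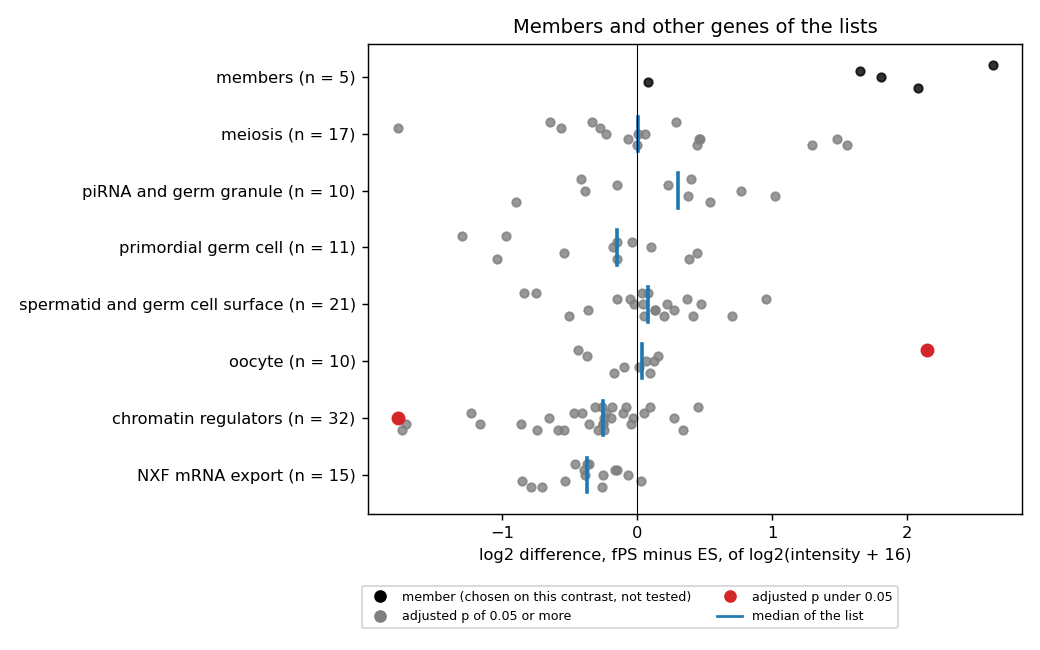
Log2 difference (fPS minus ES) of the 5 measured genes and of the other genes of 5 germ cell lists and of the lists of chromatin regulators and NXF mRNA export, 1 point per gene, with the median of each list as a blue line and genes past the adjusted p of 0.05 in red. The list medians lie between -0.37 and 0.30, and Sohlh1 at 2.14 and Tet1 at -1.77 are the points that passed.

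Genes of the chromatin machinery that acts on germline promoters were mostly on the negative side, which depended more on ES replicate 3 than on fPS replicate 3. The mean log2 level of the list was 9.05, 8.94 and 9.77 in ES and 8.99, 8.90 and 8.59 in fPS cells, so that ES replicate 3 stood above and fPS replicate 3 below the others. Of 32 measured, 0 rose and 1 fell, with 0 higher and 8 lower before adjustment (p under 0.05), and 10 had all fPS arrays below all ES arrays, a share to set beside 11.3% of all genes. The median log2 difference was -0.26 with 5 positive. It was -0.068 with 14 positive without ES replicate 3, and -0.24 with 6 positive without fPS replicate 3. Without both replicate 3 arrays it was 0.032 with 18 positive. Tet1, an enzyme that oxidises methylated cytosine, was at 524, 419 and 735 in ES and 227, 111 and 129 in fPS cells, and fell by 1.77 on the log2 scale (SE 0.311, adjusted p = 0.0489, limma). The call was lost without ES replicates 1, 2 or 3 (adjusted p = 0.167, 0.0864 and 0.128), without fPS replicates 2 or 3 (adjusted p = 0.219 and 0.128), with pseudocounts of 1 and 64 (adjusted p = 0.177 and 0.0703), with the replicate block (adjusted p = 0.0603) and with the collagen covariate (adjusted p = 0.0616). The difference itself was -1.77 with the block, -1.82 with the covariate and -1.47 without both replicate 3 arrays. Tet2 and Tet3, its relatives, and Zbtb38, a reader of methylated DNA, had differences of -1.23, -1.71 and -1.74 (adjusted p = 0.253, 0.0933 and 0.0961), and the methyltransferase gene Dnmt3b had -1.16 (adjusted p = 0.348).

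The subunits that recognise the motifs above did not pass. Max, the partner of Mga on the E-box, had means of 1013 in ES and 580 in fPS cells (adjusted p = 0.251). For E2f6 and Mga the adjusted p was 0.699 and 0.743, and for Dnmt1, which maintains DNA methylation, 0.978. These 4 genes were singled out for their role.

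Genes of mRNA export and of small RNA and RNA helicases gave no call. Nxf1 and Mov10, the relatives of Nxf7 and Mov10l1 among them, had log2 differences of -0.15 and -0.17 (adjusted p = 0.812 and 0.869, limma). Of 15 measured genes of mRNA export, Nxf1 and its cofactors among them, 0 passed by limma (before adjustment, at p under 0.05, 0 higher and 2 lower), 1 had a positive sign and the median was -0.37, or -0.24 without ES replicate 3, -0.19 without fPS replicate 3 and -0.11 with 4 positive without both. Nxt1 and Nxt2, partners of NXF proteins, had differences of -0.85 and -0.54 and the export factors Ddx39b and Thoc1 of -0.79 and -0.70, none of which passed. Of 10 genes of small RNA and RNA helicases, including Mov10, the somatic relative of Mov10l1, 0 passed (before adjustment, at p under 0.05, 0 higher and 2 lower) and 0 had a positive sign, with a median of -0.24. That sign rested on the replicate 3 arrays of both groups: the median was -0.096 without that of ES, -0.11 without that of fPS and 0.11 with 7 positive without both. Ago1, Xrn1, Ddx3x and Dicer1 had -0.97, -0.78, -0.34 and -0.31. Of 9 LY6/uPAR genes, the protein family of Tex101, 0 passed (before adjustment, at p under 0.05, 2 higher and 2 lower), with a median of 0.082, and Ly6e and Lypd3 had -0.99 and 0.54. Plaur, the urokinase receptor, singled out after its values were seen, was at 12.2, 3.04 and 22.7 in ES and 47.9, 61.4 and 105 in fPS cells, all of them higher. Its difference of 1.62 did not pass (adjusted p = 0.064).

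Among 6431 genes with a mean log2 value of at least 7, those most like each gene over the 6 arrays were taken by Pearson's r, as a description. Closest to Sycp3 were Gadd45g (r = 0.999), Frmd6 (0.994) and Prkcd (0.991). Mov10l1 was closest to Csgalnact2 (0.998), C130050O18Rikl (0.995) and C3h20orf96 (0.991). For Tex101 they were Stk10 (0.997), Spsb2 (0.995) and Kat14 (0.992), and for Nxf7 they were Gip (0.996), Atp6v0b (0.994) and Egr1 (0.994). Sycp1, whose values were near the bottom of the scale, was most like Nup188 (0.982), Lgals1 (0.963) and Slc22a5 (0.961). None of these 15 genes is in the germline or marker lists, but nothing is read from that. The cut at 7 left out dimmer germline genes, such as Syce3, Asz1 and Sohlh1 with mean log2 values of 6.96, 6.72 and 5.41.

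The differences of the 4 higher genes kept their sign under the 16 alternatives tried for each. The ranges were 1.96 to 2.20 for Sycp3, 1.26 to 2.12 for Mov10l1, 1.35 to 1.90 for Tex101 and 2.00 to 2.96 for Nxf7. The lowest values of Mov10l1, Tex101, Nxf7 and Sycp3 all came with a pseudocount of 64, which compresses dim signals most. Leaving out single arrays gave 1.99 to 2.16, 1.57 to 2.01, 1.51 to 1.90 and 2.40 to 2.87 in the order Sycp3, Mov10l1, Tex101 and Nxf7. For Sycp1 the lowest value was -0.18, when fPS replicate 3 was left out, and the highest 0.27, when ES replicate 3 was left out, so it had no stable sign.

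**Figure D5:**
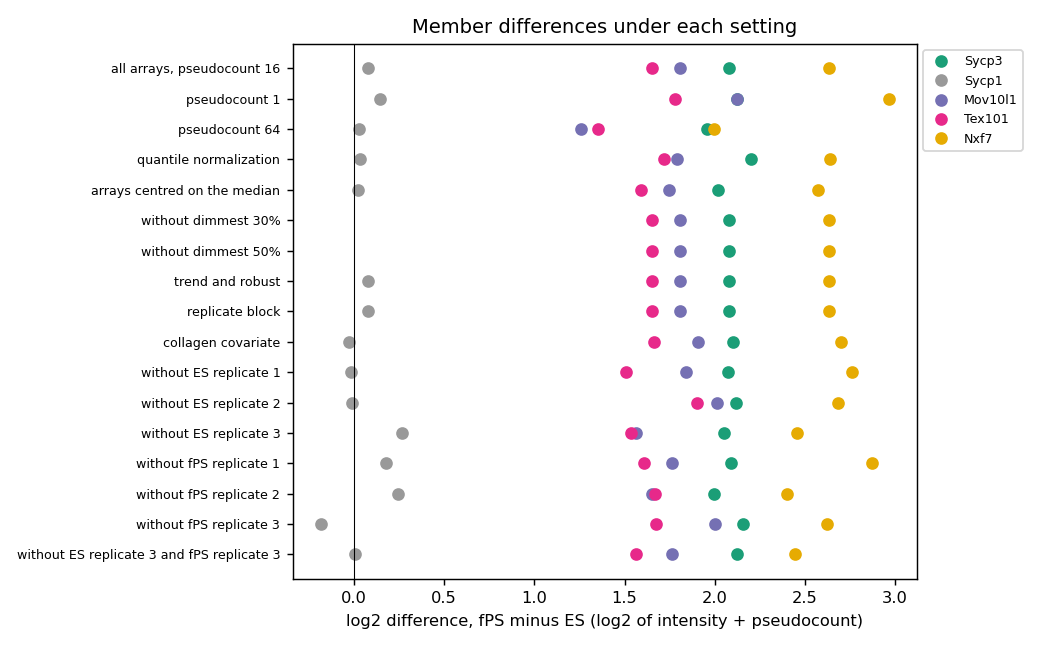
Log2 difference (fPS minus ES) of the 5 measured genes under each setting, from all arrays with a pseudocount of 16 down to both replicate 3 arrays left out. Sycp3, Mov10l1, Tex101 and Nxf7 stay at or above 1.26, and Sycp1 lies between -0.18 and 0.27.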

How the data were processed

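Each sample's RNA, as biotin-marked cRNA, was read on 1 Affymetrix array. The authors deposited 1 linear intensity per probe set and array; how they summarised probes, corrected background and scaled arrays is not given in the sources used here. Of 31099 probe sets, 57 controls were left out and 31042 tested. The platform annotation gave 20826 of them 1 symbol, 436 several and 9780 none. Values were analysed as log2(intensity + 16), which understates changes of dim probe sets, with limma 3.58.1 in R 4.3.3 (lmFit, eBayes), p-values adjusted by Benjamini-Hochberg across every tested probe set, and calls at 0.05. A gene of a list was represented by its brightest probe set over the 6 arrays. The table held 0 columns of other samples. Plots used matplotlib 3.10.9 (Python 3.11.15).

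The genes described and all lists were chosen with earlier results of these data known. Named from each list were genes past the threshold and up to 4 others with the largest difference among those brighter than the median probe set, and the 3 brightest of each marker list. For likeness the 3 genes of highest r were named, leaving out symbols that begin with LOC or RGD. Overlapping and neighbouring genes, and names given with their role, were added after the data were seen.

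On simulated data of 31042 probe sets with 200 changed, the fit recovered 8% of 2-fold and 78% of 4-fold changes, and 6.58% of its calls were false. Alternatives were pseudocounts of 1 and 64, quantile normalization, median centring, leaving out the dimmest 30% or 50%, trend and robust eBayes, the replicate number as a block, a collagen covariate, the mean over probe sets of a gene, a shorter promoter window and leaving out each array. The number of arrays limits the precision.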

Additional observations from a re-analysis of the deposited data

How the results depend on the processing

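The number of probe sets past the threshold moved with nearly every choice. It was 215 as reported, 0 and 41 with pseudocounts of 1 and 64, 337 after quantile normalization, 376 with centred arrays, 759 and 899 without the dimmest 30% and 50%, 619 with trend and robust settings, 95 with the collagen covariate and 107 with the replicate block. Leaving out single arrays gave 0 (without ES replicate 1 or fPS replicate 2) to 162 (without fPS replicate 1), and leaving out both replicate 3 arrays, a choice made after seeing the data, gave 0. Of the 68 other germ cell genes, 1 passed as reported, 0 with pseudocounts of 1 and 64, 7 and 6 without the dimmest 30% and 50% (of 49 and 34 tested, 14.3% and 17.6% beside 3.65% and 5.56% of all genes), 6 with trend and robust settings (8.82% beside 2.52%), 4 with the mean over probe sets, 0 to 2 without single arrays and 0 without both replicate 3 arrays. Without the dimmest 30% they were 5 higher (Asz1, Cpeb1, Sohlh1, Stag3 and Syce3) and 2 lower (Lin28a and Mlh3). Within 150 bases before the start, 2 of the 6 promoters held an E-box and 0 the E2F-type motif (4.81% and 3.30% of all promoters). Of 78 values of the 5 measured genes under alternatives, 76 moved by less than the spread between replicates; Mov10l1 and Nxf7 with a pseudocount of 64 did not (1.26 and 2.00). Why these counts and values moved was not tested.

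The replicate numbers were not taken as pairs in the main fit. Deviations of same-numbered arrays correlated at 0.15, 0.020 and 0.075, and those of arrays with unlike numbers at -0.14 to 0.054. ES replicates 1 and 3 correlated best with the same number in fPS cells, and ES replicate 2 with fPS replicate 3 (0.054). With the replicate block, Mlh3 passed as lower among the 68 genes and Sohlh1 did not pass. Dim genes such as Sycp1 and Spo11 lie where intensities carry little information.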
